A study of Homo sapiens with 2 samples.

Results

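The genes described here are 9 transcription regulators of the developing kidney, PAX2, PAX8, WT1, LHX1, SIX2, EYA1, SALL1, OSR1 and GATA3, out of 20033 protein-coding genes in the GENCODE 44 annotation of the human genome build GRCh38. They were taken as a named list by a rule that holds no measured value, though with earlier results of these data known, and each was given a locus made of its gene body and the sequence within 100 kb of its canonical transcription start site (TSS). The deposited accessibility peaks in these loci numbered 30 of 36142 in control cells and 20 of 22884 in cells treated with methylglyoxal (MGO). A peak within 1000 bp of any annotated start of the gene was counted as a TSS peak, any other peak over the gene as a gene body peak, and the rest as flanking peaks.

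The peaks came from ATAC-seq, in which the Tn5 transposase places sequencing adapters into DNA that is not wrapped in nucleosomes or covered by other proteins. The cells were 293T, a line derived from human embryonic kidney that carries the SV40 large T antigen, and 50000 cells went into each of the 2 libraries. The MGO library came from cells kept for 12 h with 0.5 mM methylglyoxal, a reactive by-product of glycolysis that forms adducts on proteins and DNA, whereas the control cells received medium without MGO, which 1 deposited label describes as PBS and another as plain fresh medium. Only 1 library of each condition was analysed, so no difference between the conditions has a replicate check, no test was made, and the treatment and the library cannot be told apart. The authors subsampled the reads to equal depth, but no read counts accompany the peaks, so the number of reads behind each one is unknown.

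The kidney forms from intermediate mesoderm, which OSR1 marks early and in which PAX2, PAX8 and LHX1 specify the nephric duct. GATA3 acts downstream of the PAX proteins in the duct and its ureteric bud. EYA1, SIX2, SALL1 and WT1 act in the metanephric mesenchyme around the bud, where SIX2 keeps nephron progenitors undifferentiated, and WT1 is used again in the podocytes of the glomerulus. Peaks mark open DNA and do not by themselves give the level of a transcript or protein.

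In control cells 6 of the 9 genes had a TSS peak (PAX2, WT1, SIX2, EYA1, SALL1 and GATA3), where 67.3% of coding genes had one. In MGO 7 of the 9 did, where the share over coding genes was 63.9%. The same 6 genes had a TSS peak in both lists, and the added gene in MGO was PAX8, at an internal start. A TSS peak in MGO without one in control was found for 1.26% of coding genes. On the primary chromosomes none of the 9 had a TSS peak in control alone, as 4.72% of coding genes did, while LHX1 had one on an alternate contig, described with that gene. OSR1 and LHX1 had no TSS peak in either list on the primary chromosomes.

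The 30 control peaks divided into 8 TSS, 8 gene body and 14 flanking peaks, and the 20 MGO peaks into 7, 3 and 10. The number of locus peaks in MGO was 0.667 times that in control (95% exact interval 0.359 to 1.21, counting error only), and over the whole lists it was 0.633 times. The peaks covered 27983 bp of these loci in control and 16608 bp in MGO, a ratio of 0.594. EYA1 held much of the difference, with 9 control and 2 MGO peaks, followed by SIX2 with 5 and 2 and OSR1 with 4 and 2. At a −log10 q of at least 2, EYA1 had 5 and 2 peaks, SIX2 3 and 1 and OSR1 3 and 2, and the ratio over the 9 loci was 0.773. With equal numbers of peaks taken from each list it was 0.909. The loci of all coding genes held 19847 control and 13778 MGO peaks at a −log10 q of at least 2. With equal numbers of peaks they held 19101 and 18734. PAX8 and GATA3 had 3 peaks in each list, WT1 and SALL1 had 1 in each, PAX2 had 4 in control and 5 in MGO, and LHX1 had none and 1. The median was 3 control and 2 MGO peaks per gene, beside medians of 4 and 3 over all coding genes.

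**Figure D1:**
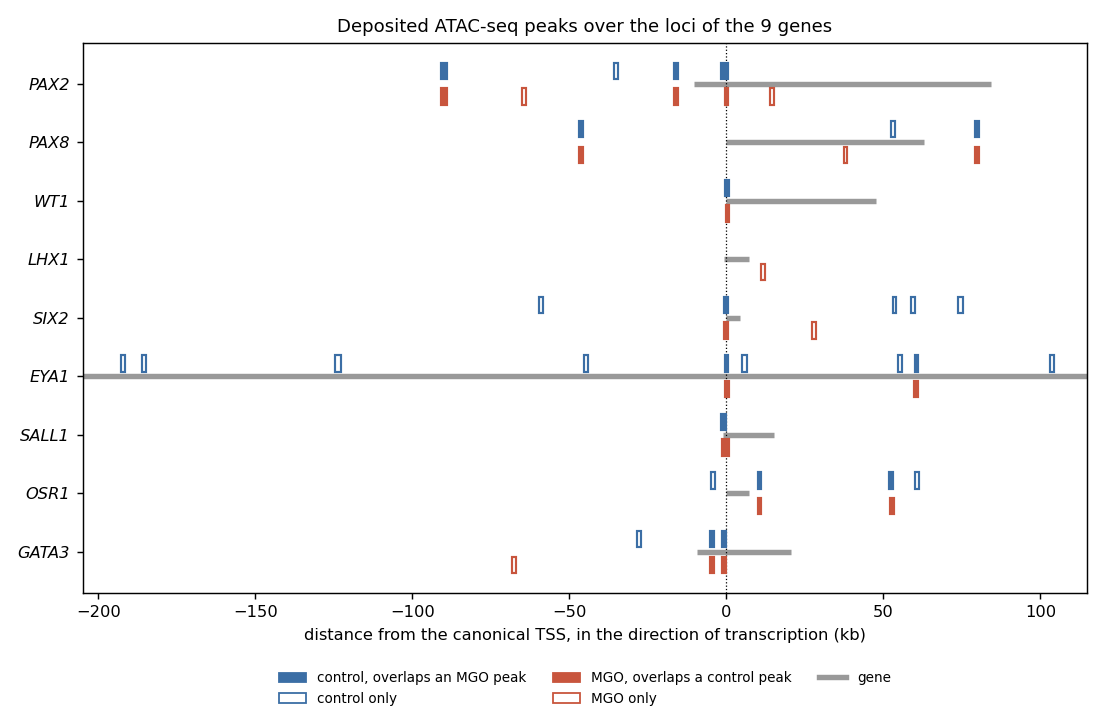
Peaks in the loci of the 9 genes, by distance in kb from the canonical TSS in the direction of transcription, with control peaks drawn above and MGO peaks below the grey gene bar. Filled boxes overlap a peak of the other list and open boxes do not, and peaks narrower than the drawn minimum are widened to be visible. Of the 14 shared peaks 6 are TSS peaks, at or near the dotted start line, and most of the open control boxes belong to EYA1 and SIX2. The EYA1 bar runs past both ends of the axis.

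A control peak in these loci overlapped an MGO peak by at least 1 bp in 14 of 30 cases, or 46.7% (95% exact interval 28.3 to 65.7%), beside 54.9% of the control peaks in the loci of all coding genes. Among the TSS peaks 6 of 8 did so, 75.0% (34.9 to 96.8%), beside 87.7% over coding genes. Among the other locus peaks 8 of 22 did so, 36.4% (17.2 to 59.3%), beside 26.3% over coding genes. The 26.3% leaves out peaks at the TSS of any coding gene. Without such a peak in the PAX8 locus, at PSD4, the share here was 33.3%. All these intervals hold the share over coding genes and cover counting error only. The 14 control peaks with an MGO partner had a median −log10 p of 6.7 and a median width of 1007 bp, and the 16 without one had 4.38 and 518 bp. The strongest of those 16 had a −log10 p of 6.32. In the other direction 6 of 20 MGO peaks had no control partner, 30.0% (11.9 to 54.3%), where 16.5% of MGO peaks in the loci of coding genes had none. At a −log10 q of at least 2, the threshold of the methods, 3 of 17 MGO peaks and 8 of 22 control peaks had no partner, so that 63.6% of control peaks had one. Over coding genes at that threshold 8.87% of MGO locus peaks had no partner and 63.2% of control locus peaks had one, 85.6% among TSS peaks, where the 6 control TSS peaks left for these genes all had one. One of the 6 MGO peaks without a control partner, near LHX1, corresponds in position to a control peak on an alternate contig.

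OSR1 (chr2:19351485-19358623, minus strand) encodes a zinc finger protein that is among the first markers of intermediate mesoderm. Neither of its annotated starts had a peak within 1000 bp, and the nearest control peak, chr2:19362690-19363268, lay 4.07 kb upstream of the canonical start and had no MGO partner. The strongest peak of all 9 loci by −log10 p was nevertheless in this locus, 10.6 kb downstream of the start, at chr2:19347602-19348431 in control and chr2:19347627-19348506 in MGO. Its fold enrichment over background was 5.34 in control and 3.96 in MGO, and its −log10 p was 24.0 and 10.6. In control it stood above 98.7% of the whole list. Both calls differed little in width, 830 and 880 bp, and overlapped by 805 bp. The peak lies at an annotated start of LINC01376, a long non-coding RNA gene, so it cannot be assigned to OSR1 from position alone. The central 300 bases of the control call, chr2:19347867-19348166 on the plus strand, are shown because this is the strongest peak of the set. Capitals mark matches to the ETS core CCGGAAG and the Sp/KLF core GGGCGG on either strand.
OSR1 downstream peak: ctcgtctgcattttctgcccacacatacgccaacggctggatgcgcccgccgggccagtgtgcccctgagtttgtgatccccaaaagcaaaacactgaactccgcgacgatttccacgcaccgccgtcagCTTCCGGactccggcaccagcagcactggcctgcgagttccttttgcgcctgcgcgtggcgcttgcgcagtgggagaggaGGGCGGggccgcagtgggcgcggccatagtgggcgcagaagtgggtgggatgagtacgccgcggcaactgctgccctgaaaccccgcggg

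A second shared peak of the OSR1 locus lay 52.5 kb downstream, also over LINC01376, with a fold enrichment of 3.86 in control and 3.73 in MGO. Of the 14 shared peaks it had the largest ratio of widths, at 499 bp in control and 1208 bp in MGO. The sequence there is repeated in the genome, with 48 matches to 39 alternate contigs of the assembly at 95.59 to 97.22% identity, and the part of this in the peak was not tested. The fourth control peak of the locus, 60.7 kb downstream, had a −log10 p of 3.55 and no partner.

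PAX2 (chr10:100735396-100829944, plus strand), a paired-box factor of the nephric duct and the induced mesenchyme, had the widest TSS peak of the 9 genes in control and the narrowest TSS peak of those shared between the lists in MGO. The control peak, chr10:100743803-100746169, was 2367 bp wide and the MGO peak, chr10:100745440-100745882, was 443 bp wide and lay wholly inside it. Its left edge was 1637 bp further in and its right edge 287 bp further in. Fold enrichment differed less, from 2.74 to 2.47, and −log10 p from 6.0 to 4.48. The width ratio was 0.187, beside a median of 0.900 for TSS peaks of coding genes paired 1 to 1 between the lists. Of those pairs, which include control peaks of any width, 0.0949% narrowed as much or more. PAX2 was the most narrowed of the shared TSS peaks, so this share describes a selected pair and is not a test. The −log10 q of its MGO call was 2.05, close to the methods’ threshold of 2. The canonical start was inside both calls. Below are the 250 bases upstream of it (RefSeq, GRCh38.p14, chr10:100745332-100745581), shown because the MGO boundary runs through them. All of them were in the control peak, and the capitals are the 142 bases that were also in the MGO peak.
PAX2 promoter: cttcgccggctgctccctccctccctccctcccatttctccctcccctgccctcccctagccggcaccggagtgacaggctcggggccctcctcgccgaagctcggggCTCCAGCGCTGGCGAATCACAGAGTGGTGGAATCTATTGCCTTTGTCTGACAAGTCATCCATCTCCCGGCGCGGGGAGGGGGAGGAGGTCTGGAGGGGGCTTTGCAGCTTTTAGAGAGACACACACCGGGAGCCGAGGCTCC

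The shared PAX2 peaks away from the promoter differed little. A flanking peak 16.0 kb upstream of the start, chr10:100729105-100730102 in control and chr10:100729210-100730107 in MGO, had a fold enrichment of 3.19 and 3.04 and a −log10 p of 6.1 and 5.69, and 893 bp were shared. A wide peak 90.0 kb upstream was 2061 bp in control and 1974 bp in MGO, with a fold enrichment of 2.56 and 2.51. Both were narrower in MGO, with width ratios of 0.900 and 0.958, and neither by as much as the promoter peak. A control peak 35.2 kb upstream had no partner, and neither did MGO peaks 64.4 kb upstream and 14.5 kb into the gene, whose −log10 q values of 1.01 and 1.26 were close to the lowest value in the list, 1.01.

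PAX8 (chr2:113215997-113278921, minus strand), the paired-box factor that acts beside PAX2, had no peak at its canonical start in either list. In MGO a peak of 297 bp, chr2:113240840-113241136, lay 37.9 kb into the gene, 643 bp from the start of a shorter annotated transcript and over an exon. Its fold enrichment was 3.29, its −log10 p 5.6 and its −log10 q 3.06, and no control peak overlapped it. The peak passes the rule for a TSS peak only because of that internal start. Its whole sequence, on the plus strand, is shown because it is the only TSS peak of the 9 genes found in MGO alone. Capitals mark matches to the AP-1 site TGANTCA.
PAX8 internal peak: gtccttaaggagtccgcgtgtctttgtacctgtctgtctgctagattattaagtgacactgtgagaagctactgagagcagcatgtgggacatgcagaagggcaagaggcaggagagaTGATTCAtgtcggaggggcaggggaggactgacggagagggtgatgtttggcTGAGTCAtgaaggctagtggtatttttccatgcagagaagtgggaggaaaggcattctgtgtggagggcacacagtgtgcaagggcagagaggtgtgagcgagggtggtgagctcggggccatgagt

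The strongest peak of the PAX8 locus in both lists lay 79.9 kb downstream of the start at the TSS of the neighbouring coding gene PSD4. Its fold enrichment was 4.28 in control and 3.33 in MGO, and its −log10 p was 15 and 6.89. A peak 46.1 kb upstream, over LINC02966, had a similar enrichment, at 3.07 and 3.13, and was narrower in MGO, at 359 bp against 1302 bp. A control peak over an exon 53.0 kb into PAX8 had a −log10 p of 4.95 and no partner. Of the control peaks in the 9 loci, 10 lay within 1000 bp of a start of another gene, 1 of them a coding gene (PSD4), and in MGO 8 did so, 2 of them at coding genes (PSD4 and AATF).

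GATA3 (chr10:8045378-8075198, plus strand), a zinc finger factor of the nephric duct, was the only one of the 6 shared TSS peaks with higher values in MGO. The control peak, chr10:8053429-8054428, had a fold enrichment of 2.48 and a −log10 p of 6.45. The MGO peak, chr10:8053499-8054332, had 2.96 and 8.42, a fold ratio of 1.19, although it was narrower, at 834 bp against 1000 bp. Both calls ended upstream of the canonical start, by 260 bp in control and 356 bp in MGO, and both covered an upstream start of GATA3. A start of its antisense gene GATA3-AS1 lay within 1000 bp of both calls, and ATAC-seq cannot separate the 2 genes. The upstream promoter that the calls enter (RefSeq, GRCh38.p14, chr10:8053391-8053603) is shown because of that higher value, without its untranslated bases. Capitals are the bases in the MGO peak.
GATA3 upstream promoter: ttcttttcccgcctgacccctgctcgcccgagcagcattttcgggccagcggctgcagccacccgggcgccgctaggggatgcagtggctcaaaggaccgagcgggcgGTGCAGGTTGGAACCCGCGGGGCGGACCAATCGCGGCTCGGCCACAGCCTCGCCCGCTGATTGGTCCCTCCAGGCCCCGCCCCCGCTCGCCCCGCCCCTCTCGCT

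A second shared peak lay in GATA3, 4.5 kb upstream of the canonical start, chr10:8049545-8050927 in control and chr10:8049959-8050531 in MGO. It was 1383 bp wide in control and 573 bp in MGO, with a fold enrichment of 2.37 and 2.25, so both GATA3 peaks were narrower in MGO while their fold enrichment and −log10 p differed in opposite directions.

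LHX1 (chr17:36936785-36944612, plus strand), a LIM homeodomain factor of the nephric duct and the renal vesicle, was the only member with no control peak in its locus, which was the case for 5.24% of coding genes. The nearest control peak on the chromosome was 392 kb from the canonical start. In MGO a peak lay 11.7 kb downstream, chr17:36948919-36949389, at the TSS of the neighbouring coding gene AATF, with a fold enrichment of 4.37, the highest of the MGO peaks in the 9 loci, a −log10 p of 7.99 and a −log10 q of 5.25.

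The LHX1 locus is present a second time in the assembly, on the alternate contig 17_KI270857v1_alt, at 99.81% identity over its whole length, and it was the only one of the 9 whose canonical start matched an alternate contig. Both lists held peaks on that contig. In control a 409 bp peak, at bases 1172844 to 1173252, lay over a start of LHX1 with a fold enrichment of 2.8, a −log10 p of 3.53 and a −log10 q of 1.36. A second control peak, at 1184852 to 1185735, with values of 3.12 and 4.28, overlapped by 452 bp the position to which the MGO peak at AATF corresponds, 1185284 to 1185754. In MGO a peak lay 16.4 kb upstream of the LHX1 start, at 1157241 to 1157568, with a −log10 p of 4.82. Counted with the contig, which was done after the data were seen, 7 of the 9 genes had a TSS peak in control and 7 in MGO, and LHX1 became a gene with a TSS peak in control alone, a call that is lost at a −log10 q of at least 2. The authors removed reads that map to several places. How that step divided reads between the copies was not tested, so the absence of LHX1 peaks on the chromosome does not by itself measure closed chromatin.

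WT1 (chr11:32387775-32435564, minus strand), a zinc finger factor of the metanephric mesenchyme and of podocytes, had 1 peak in its locus in each list, and the calls differed little. The control peak, chr11:32434694-32435707, was 1014 bp wide with a fold enrichment of 3.73 and a −log10 p of 9.14. The MGO peak, chr11:32434579-32435673, was 1095 bp wide with 3.61 and 7.6, and the calls shared 980 bp. They covered the canonical start and lay within 1000 bp of a start of the antisense gene WT1-AS. No further peak was called within 100 kb of the start or over the gene. The promoter sequence upstream of the transcribed bases (RefSeq, GRCh38.p14, chr11:32435565-32435789, minus strand) is shown for comparison with PAX2, since the upstream edge of the calls moved by 34 bp. Capitals are the bases in the MGO peak.
WT1 promoter: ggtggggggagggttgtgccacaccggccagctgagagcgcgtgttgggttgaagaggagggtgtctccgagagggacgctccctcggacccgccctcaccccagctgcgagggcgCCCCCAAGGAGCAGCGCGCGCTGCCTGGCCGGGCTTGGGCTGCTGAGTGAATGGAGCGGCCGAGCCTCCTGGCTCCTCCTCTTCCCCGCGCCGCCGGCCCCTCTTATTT

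SIX2 (chr2:45005182-45009452, minus strand), the homeobox factor that maintains nephron progenitors, had the TSS peak of highest −log10 p among the 9 genes in control, chr2:45008968-45010287, at 12.7 with a fold enrichment of 3.58, below the 3.73 of WT1. In MGO the peak, chr2:45009093-45010070, had a −log10 p of 6.08 and a fold enrichment of 2.71. The fold ratio of 0.757 was the lowest of the 6 shared TSS peaks, beside a median of 0.921 over coding genes. The width went from 1320 to 978 bp, and the MGO call lay inside the control call. The 250 bases upstream of the only annotated start (RefSeq, GRCh38.p14, chr2:45009453-45009702, minus strand) are all in capitals, because all of them were inside both calls. They hold 2 matches to GGGCGG, a string found in 42.6% of 34788 RefSeq promoters of this length, and 1 match to the GATA core AGATAA, found in 9.21%.
SIX2 promoter: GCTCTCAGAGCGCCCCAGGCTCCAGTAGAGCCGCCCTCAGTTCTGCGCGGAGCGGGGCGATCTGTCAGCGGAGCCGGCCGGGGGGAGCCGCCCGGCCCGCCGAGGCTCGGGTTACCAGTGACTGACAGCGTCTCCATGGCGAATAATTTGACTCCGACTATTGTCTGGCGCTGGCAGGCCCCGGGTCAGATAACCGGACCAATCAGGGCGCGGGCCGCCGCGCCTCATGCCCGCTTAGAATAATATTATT

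The other SIX2 peaks were not shared. In control 4 flanking peaks had no partner, of which the strongest, chr2:44949754-44950183, had a fold enrichment of 3.19 and a −log10 p of 6.32, the highest of any unpaired control peak in the 9 loci. In MGO 1 flanking peak, chr2:44981372-44981707, 27.9 kb downstream, had a −log10 p of 3.9 and no control partner.

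SALL1 (chr16:51135982-51152334, minus strand), a zinc finger protein needed for growth of the ureteric bud into the mesenchyme, had 1 peak in each list. The control peak, chr16:51151211-51152989, was 1779 bp wide and the MGO peak, chr16:51150341-51152596, was 2256 bp wide, with 1386 bp shared. The fold enrichment was 2.82 and 2.69, and −log10 p was 8.39 and 6.36. The MGO call reached 870 bp further into the gene and ended 393 bp earlier on the upstream side. SALL1 thus had a wider peak with a slightly lower enrichment, the opposite of the narrowing at PAX2.

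EYA1 (chr8:71197433-71592025, minus strand), a transcriptional coactivator and phosphatase that works with SIX2 and its relatives, is the longest of the 9 genes at 395 kb and has 24 annotated start positions. In control 3 TSS peaks were called. The strongest, chr8:71361743-71362254 at the canonical start, had a fold enrichment of 3.54 and a −log10 p of 6.94, and its MGO partner, chr8:71361268-71362214, had 3.25 and 5.48. The partner was wider, at 947 bp against 512 bp. The other control TSS peaks, chr8:71355360-71357004 and chr8:71547366-71547752, had −log10 p values of 4.07 and 3.7 and no partner, and their −log10 q values of 1.84 and 1.5 are below the methods’ threshold of 2. On the primary chromosomes these were the only TSS peaks of the 9 genes found in control alone, and both lie at starts other than the canonical one.

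Over the EYA1 introns 6 control peaks and 1 MGO peak were called. The shared one, 60.6 kb downstream of the canonical start, was the strongest of the locus, at chr8:71301072-71301899 with a fold enrichment of 4.27 and a −log10 p of 7.83 in control, and 3.7 and 6.15 in MGO. The other control peaks over introns had −log10 p values from 3.43 to 4.82. One of them, chr8:71406369-71407012, lies in sequence with 49 matches to 39 alternate contigs at 93.6 to 98.23% identity. The control peaks of EYA1 without a partner thus all lay below the control list's median −log10 p of 5.15.

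**Figure D2:**
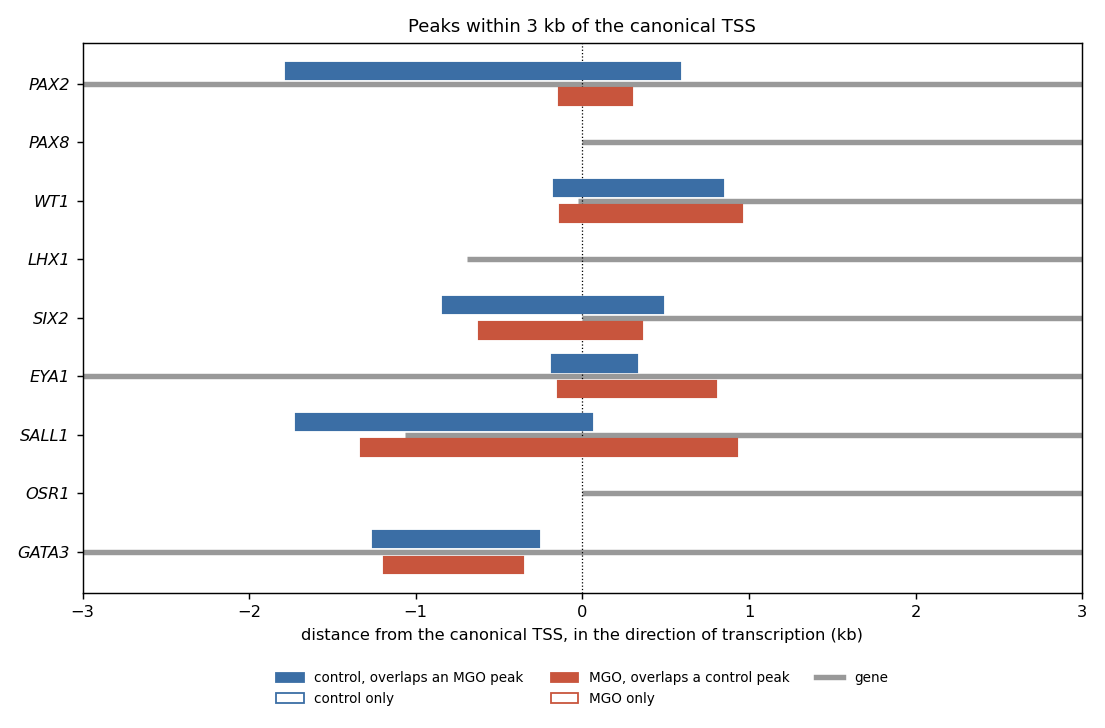
Peaks within 3 kb of the canonical TSS, by distance in kb in the direction of transcription and to scale, with control above and MGO below the grey gene bar. The PAX2 peak is 2367 bp wide in control and 443 bp in MGO, the SALL1 and EYA1 peaks reach further into the gene in MGO, and PAX8, LHX1 and OSR1 have no peak in this window.

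Across the 6 shared TSS peaks, fold enrichment was lower in MGO in 5, and −log10 p in the same 5, with GATA3 as the exception. Of the TSS peaks of coding genes paired 1 to 1 between the lists, 74.7% were lower in fold enrichment in MGO and 77.5% in −log10 p. In width 3 of the 6 shared TSS peaks were narrower (PAX2, SIX2 and GATA3), beside 68.0% of the pairs of coding genes. Of the 8 shared peaks elsewhere in the loci, 7 were lower in fold enrichment in MGO, and the exception was the PAX8 peak at 46.1 kb upstream. The share over such peaks in the loci of coding genes was 70.0%. It leaves out peaks at the TSS of any coding gene, whereas the 8 include the peak at PSD4. Lower fold enrichment in MGO was the more frequent direction over all coding genes too. With 14 pairs from 1 library each, a difference from those shares was not tested, and the counts describe the libraries only. The median fold ratio over the 14 pairs was 0.951.

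**Figure D3:**
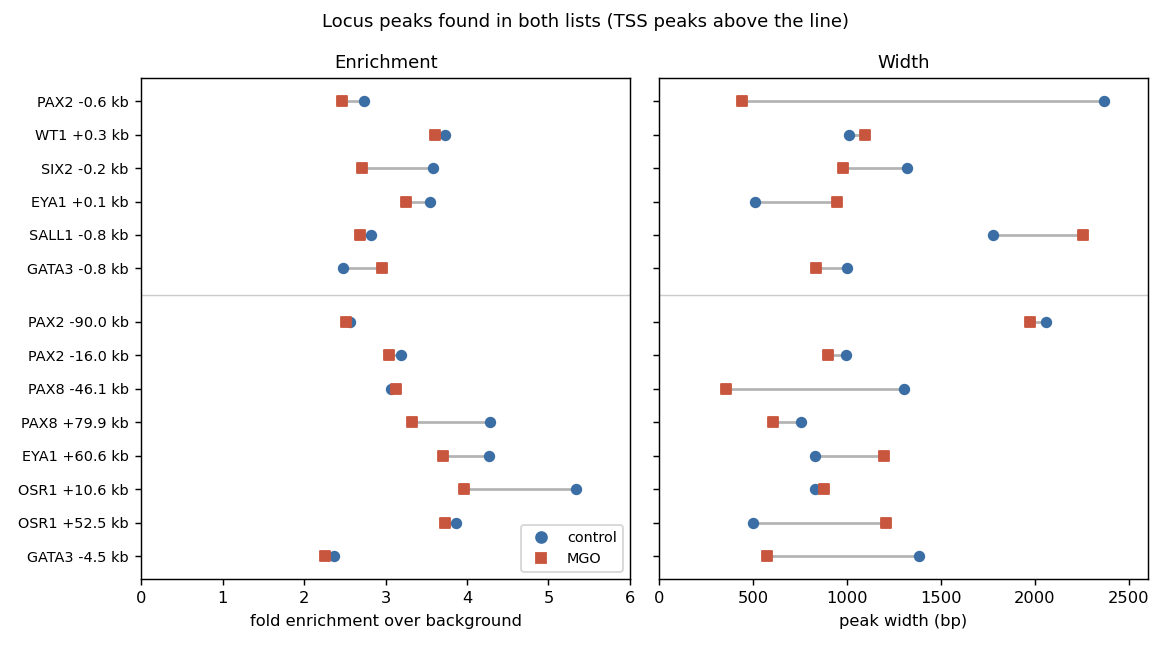
Fold enrichment over background (left) and width in bp (right) of the 14 peaks called in both lists, with control as circles and MGO as squares, named by gene and distance from the canonical TSS. The largest drops in enrichment are OSR1 at 10.6 kb (5.34 to 3.96), PAX8 at 79.9 kb (4.28 to 3.33) and SIX2 (3.58 to 2.71), and width moves in both directions.

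The TSS peaks of these genes were set beside those of all coding genes, with no test. Their median −log10 p was 6.7 in control and 6.08 in MGO, beside 8.45 and 7.31 over coding genes, and 6 of 8 in control and 5 of 7 in MGO lay below those medians. The median fold enrichment was 2.84 and 2.96, beside 3.53 and 3.28, and 5 of 8 and 5 of 7 lay below. Of the 8 control peaks 3 belong to EYA1, and WT1, SIX2 and the canonical EYA1 peak lay above the control median in fold enrichment. The median width was 1167 and 947 bp, beside 1067 and 990 bp. SIX2 and WT1 in control and GATA3 and WT1 in MGO were the TSS peaks above the median −log10 p.

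**Figure D4:**
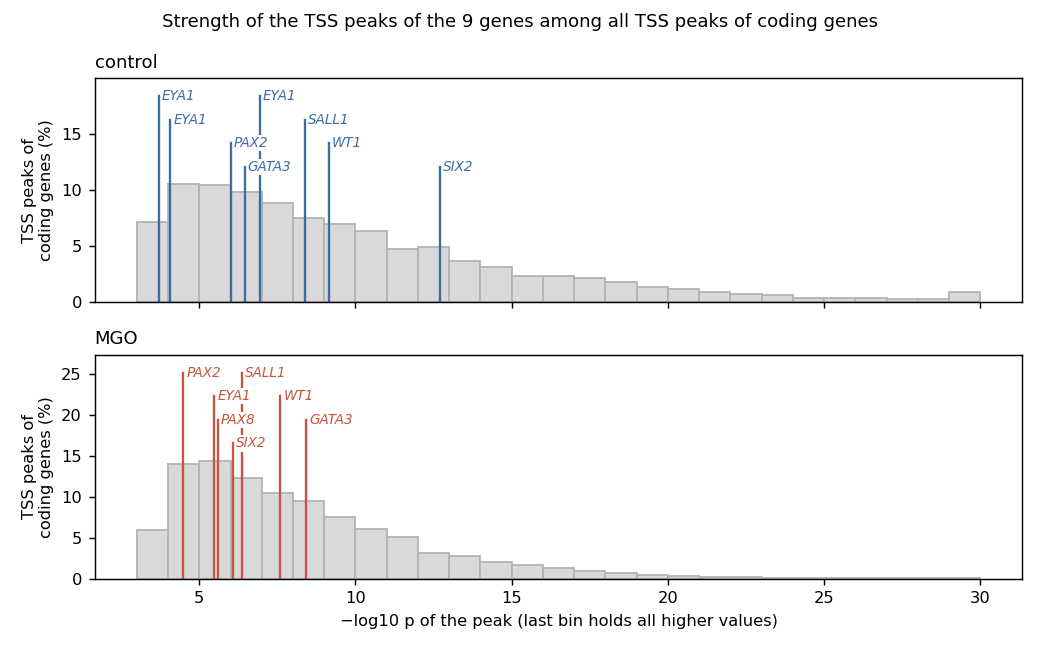
Distribution of −log10 p over the TSS peaks of all coding genes in percent (grey bars, 1 unit wide, with the last bar holding all higher values), with the TSS peaks of the 9 genes as vertical lines. The control lines lie between 3.7 (EYA1) and 12.7 (SIX2), and the MGO lines between 4.48 (PAX2) and 8.42 (GATA3).

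The base composition of these promoters spread around that of coding genes. Over 500 bp on each side of the canonical start, GC content was 70.0% at SIX2, 68.9% at PAX2, 68.0% at WT1, 65.9% at SALL1 and 64.6% at OSR1, above the coding gene median of 61.3%. It was 60.4% at GATA3, 60.2% at LHX1 and 59.6% at PAX8, just below it, and lowest at EYA1, at 48.5%. OSR1, which had no TSS peak, thus lay above the median. The ratio of observed to expected CpG was lowest at PAX8, at 0.382 beside a median of 0.725. The median GC content of the TSS peaks was 67.2% in control and 68.0% in MGO, and that of the other locus peaks was 58.2 and 63.8%, while over the whole lists it was 53.0 and 60.4%.

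Short sequence motifs were counted on both strands in the central 300 bp of each peak. The Sp/KLF core GGGCGG was the most frequent, in 12 of 30 control and 10 of 20 MGO peaks, beside 33.5 and 47.2% of the whole lists. The GATA core AGATAA was in 9 control and 3 MGO peaks (12.9 and 7.98% of the lists), the TEAD core GGAATG in 5 and 3 (13.9 and 12.4%), and the homeodomain core TAATTA in 3 and 2 (6.4 and 3.93%). The AP-1 site TGANTCA was in 1 and 3 peaks (7.57 and 8.96%), the ETS core CCGGAAG in 2 and 1 (5.78 and 7.69%), and the WT1/EGR site GCGTGGGNG, which can overlap GGGCGG, in 2 and 2 (2.12 and 2.79%). The CTCF and NRF1 motifs searched were in none, beside at most 2.26% of either list. A match is a string of letters and does not show that a factor was bound.

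For the setting of these genes, 45 other genes of kidney development were counted by the same rule. A TSS peak in both lists was found for 62.6% of all coding genes, and this share is the background for the counts of such peaks here. Of the 45 genes 36 had a TSS peak in both lists, 2 in control only (WNT11 and WNT4, signals of the ureteric bud tip and of the renal vesicle), 1 in MGO only (LMX1B, a podocyte factor) and 6 in neither. Among 14 genes of nephron progenitors and metanephric mesenchyme 12 had one in both lists, and MEOX1 and HOXA11 had none. Among 11 genes of the renal vesicle 7 did, and IRX1, IRX2 and HNF4A had none. Of 9 genes of the ureteric bud 8 did, of 6 stromal genes 5 and of 5 podocyte genes 4.

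Within the families of the 9 genes, all 4 EYA genes had a TSS peak in both lists, as did 3 of 4 genes of the SALL1 family, 4 of 6 of the SIX2 family, 4 of 6 of the GATA3 family, 5 of 8 of the LHX1 family, 5 of 9 of the PAX2 family and 1 of 2 of the OSR1 family. The 6 marker genes of 293T cells (VIM, KRT8, KRT18, NEFL, NEFM and INA) had a TSS peak in both lists, and none of 7 genes of blood, liver, heart muscle, pancreas and endothelium had one in either. Of 10 genes of the mature nephron 3 had one in both lists (NPHS1, LRP2 and SLC12A1). The TSS peaks of the kidney regulators were recorded in cells whose peaks cover the 293T markers and few segment genes.

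**Figure D5:**
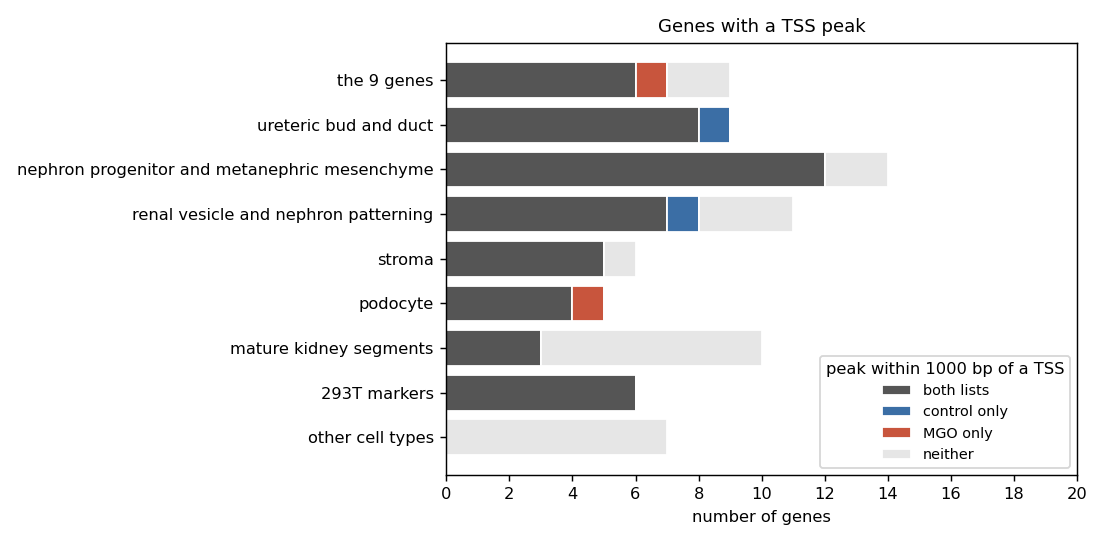
Number of genes with a peak within 1000 bp of a TSS in both lists, in control only, in MGO only or in neither, for the 9 genes, the lists of kidney development, genes of mature kidney segments, 293T markers and genes of other cell types. The 293T markers are all in both lists and the genes of other cell types all in neither.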

How the data were processed

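ATAC-seq peak lists of 1 control and 1 MGO library of 293T cells were analysed. The peak names carry the number 2 and the methods describe consensus peaks, a step that compares replicates, so other libraries may exist. According to the methods, the authors aligned reads to GRCh38.p12 with BWA-MEM 0.7.15, used Picard to take out mitochondrial reads and those mapping to several places, subsampled to equal depth and ran MACS2 broad peak calling per sample outside blacklisted regions. The authors deposited for each peak a fold enrichment (a ratio to background), the −log10 of the p-value and of the q-value, and a score, which was not used. All deposited peaks were kept, the weakest at a −log10 q of 1.01, whereas the methods use q under 0.01.

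Peaks were assigned to genes with GENCODE 44 in Python 3.11.15 (pandas 2.3.3, numpy 2.4.6, scipy 1.17.1, plots with matplotlib 3.10.9), and a locus was taken from the gene body and 100 kb around the canonical TSS. The assignment was tested on simulated data and against bedtools. Intervals are exact (Clopper-Pearson, 95%) and cover counting error only. Sequences came from the GRCh38 genome and from RefSeq promoters, in which 5 of the 9 genes matched. Alternate contigs were searched with minimap2 2.31. Named peaks were all TSS peaks, the strongest other peak of each gene in each list, and MGO-only peaks at or above a −log10 q of 2. Further peaks were named after their values were seen, and 1 peak that met the rule and 2 genes of the kidney lists are not reported here. The genes, the lists and the rules were chosen with earlier results of these data known.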

Additional observations from a re-analysis of the deposited data

How the results depend on the processing

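The counts moved most with the peak threshold. Each threshold was applied to both lists, so a peak without a partner here may overlap a weaker peak of the other list. At a −log10 q of at least 2, the threshold of the methods, 100% of the control TSS peaks of these genes overlapped an MGO peak (75.0% for all deposited peaks), beside 85.6% over coding genes, and 3 MGO peaks had no control partner (6 for all). With equal numbers of peaks from each list the TSS share was also 100%, beside 93.4%. At a −log10 q of at least 5, 3 genes had a TSS peak in control and 1 in MGO, and the loci held 6 and 3 peaks. Among peaks that passed, 16.7% of control peaks and 0% of control TSS peaks had an MGO partner, and 2 MGO peaks had none. The control TSS peaks that passed (WT1, SIX2 and SALL1) all overlapped weaker MGO peaks, with −log10 q values of 4.91, 3.5 and 3.75. Of the MGO peaks counted without a partner, the GATA3 TSS peak overlapped a control peak with a value of 4.05. Over coding genes at that threshold 43.0% had a TSS peak in control and 31.5% in MGO, 60.9% of control locus peaks and 67.7% of control TSS peaks had a partner, and 6.66% of MGO locus peaks had none. At a fold enrichment of at least 4, 0 genes had a TSS peak in either list, and the loci held 3 and 1 peaks, a ratio of 0.333. Among peaks that passed, 0% of control peaks, and 0% of those outside TSSs, had a partner, and 1 MGO peak had none. The 3 control peaks, in the OSR1, PAX8 and EYA1 loci, all overlapped MGO peaks with lower fold enrichments of 3.96, 3.33 and 3.7. Over coding genes 20.8 and 10.2% had a TSS peak, 36.5% of control locus peaks had a partner, and 19.8% of MGO locus peaks had none. Of control locus peaks outside the TSS of any coding gene, 22.2% had a partner. No TSS peak of the 9 genes was left at that threshold to give a share. PAX8 had no TSS peak with a window of 500 bp. With the alternate contig of LHX1, an alternative added after the data were seen, the ratio of locus peaks was 0.656. No paired analysis was possible because 1 library of each condition was analysed. Peak lists without read counts give no depth, so an uncalled peak is not shown to be closed chromatin.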
